A study of Mus musculus with 2 samples.

Results

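The miR-23, miR-27 and miR-24 hairpins of the mouse genome lie in a pair of paralogous clusters, here called the chromosome 13 cluster (Mir23b, Mir27b and Mir24-1) and the chromosome 8 cluster (Mir23a, Mir27a and Mir24-2). The genes were chosen by name, by matching the gene identifiers of the count files to mouse symbols, and 6 of the 1973 listed miRNA genes belong to them: Mir23b, Mir27b and Mir3074-1 on chromosome 13, and Mir23a, Mir27a and Mir24-2 on chromosome 8. Mir24-1 is not listed. It lies on the strand opposite to Mir3074-1, so its reads were taken from the opposite-strand count at Mir3074-1, and all other values are sense counts.

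The small RNA of limb tissue from B6NCrl mouse embryos at 11.5 days was sequenced in 2 libraries of a single group, labelled biological replicates 1 and 2. Each library pooled healthy embryos of both sexes, 109 for replicate 1 and 88 for replicate 2. No genetic change or treatment is given in the labels, both libraries carry the same donor identifier, and no second tissue, age or treatment is in the series. The sense counts summed to 2953085 in replicate 1 and 3459176 in replicate 2, from 6661559 and 7420829 reads. Levels are given as CPM, the counts scaled to a common library total. A gene at 0 counts may still lie at up to 1.02 CPM in replicate 1 and 0.867 CPM in replicate 2; these limits and all intervals below cover counting error only. They are not scaled to hairpin length, because the mature miRNAs are of nearly the same length.

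A microRNA is cut from a hairpin precursor, and bases 2 to 8 of the mature strand, the seed, pair with target messenger RNAs. The hairpins of a cluster are usually cut from the same primary transcript, and vertebrates carry this cluster as paralogs. The miR-23, miR-27 and miR-24 families are known from blood vessel growth, muscle and fat differentiation; miR-27 represses Pax3 in mouse embryonic muscle progenitors and the fat cell regulator Pparg. Whole limb tissue is a mixture of cells, so fewer cells of a type and less RNA per cell cannot be told apart.

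The loci below are given on the mm10 assembly, with 1-based positions from GENCODE M21. Mir23b (ENSMUSG00000065599.1 in the files) lies on chromosome 13 from 63300484 to 63300557 and Mir27b (ENSMUSG00000065475.1) from 63300712 to 63300784, both on the plus strand. They lie within the gene 2010111I01Rik, which runs on the same strand from 62964893 to 63326096 and encodes aminopeptidase O, and opposite to the gene Fancc, whose annotated span covers them on the minus strand. Mir23b overlaps no annotated exon, whereas Mir27b overlaps an exon of a 2010111I01Rik transcript. Mir3074-1 (ENSMUSG00000092741.1) lies on the minus strand from 63301199 to 63301283, over Mir24-1, which is on the plus strand from 63301208 to 63301275. Mir23a (ENSMUSG00000065611.1), on the plus strand of chromosome 8 from 84208518 to 84208592, and Mir27a (ENSMUSG00000065444.1), from 84208672 to 84208758, lie in no other annotated gene. Mir24-2 (ENSMUSG00000065541.1), from 84208815 to 84208921, overlaps by its end the noncoding gene Gm26532. The 3 hairpins span 792 bases on chromosome 13 and 404 bases on chromosome 8. The files carry version 1 of the Mir23b, Mir27b and Mir3074-1 identifiers and GENCODE M21 carries version 2, so the interval counted for these may differ from the one printed.

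The mature sequences show how much of each product the paralogs share, which bears on the counts because reads that map to several places have a line of their own in the files. They are RefSeq sequences on GRCm38.p6, 5′ to 3′, with the seed in capitals, the chromosome 13 product before its chromosome 8 paralog.
mmu-miR-27b-3p: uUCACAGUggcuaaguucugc
mmu-miR-27a-3p: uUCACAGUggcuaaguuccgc
mmu-miR-24-1-5p: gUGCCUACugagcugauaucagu
mmu-miR-24-2-5p: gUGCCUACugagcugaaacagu
mmu-miR-24-3p: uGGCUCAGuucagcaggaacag
mmu-miR-23a-3p: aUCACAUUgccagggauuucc
Counted from the 5′ end, miR-27a-3p differs from miR-27b-3p by a single substitution, C19U, and the first 18 of the 21 bases are the same. The 22 bases of miR-24-3p are the same in Mir24-1 and Mir24-2. Its partner strands miR-24-1-5p and miR-24-2-5p share their first 16 bases and the seed. The miR-24-2-5p sequence set against the Mir24-1 hairpin gave A17U as its first difference.

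For the miR-23 pair, the hairpins are shown with their longest shared run in capitals, because the abundant part of the family turns on it.
Mir23b hairpin: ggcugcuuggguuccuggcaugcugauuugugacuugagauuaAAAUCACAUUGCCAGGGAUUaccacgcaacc
Mir23a hairpin: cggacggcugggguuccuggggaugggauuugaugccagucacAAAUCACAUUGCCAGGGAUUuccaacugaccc
The run is 20 bases long and holds the first 18 bases of miR-23a-3p. Against the Mir23b hairpin, miR-23a-3p has the single substitution U19A. Mature mmu-miR-23b-5p is listed for Mir23b and mmu-miR-23a-5p for Mir23a, and these arms differ in more places, with 6 differences over the 21 bases of miR-23b-5p.

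The third position is shown in the same way, with the longest run shared by both hairpins in capitals, since it covers the whole of miR-24-3p.
Mir24-1 hairpin: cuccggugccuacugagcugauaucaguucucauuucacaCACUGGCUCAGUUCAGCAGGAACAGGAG
Mir24-2 hairpin: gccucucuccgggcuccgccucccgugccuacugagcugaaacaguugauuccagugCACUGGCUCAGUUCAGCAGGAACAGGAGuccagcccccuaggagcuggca
That run is 28 bases long, 6 bases more than miR-24-3p, and reaches the end of the Mir24-1 hairpin. A read lying within it has the same letters at both loci. Over their whole length the hairpins were 74.1% identical for Mir23b and Mir23a, 61.7% for Mir27b and Mir27a and 54.5% for Mir24-1 and Mir24-2.

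**Figure D1:**
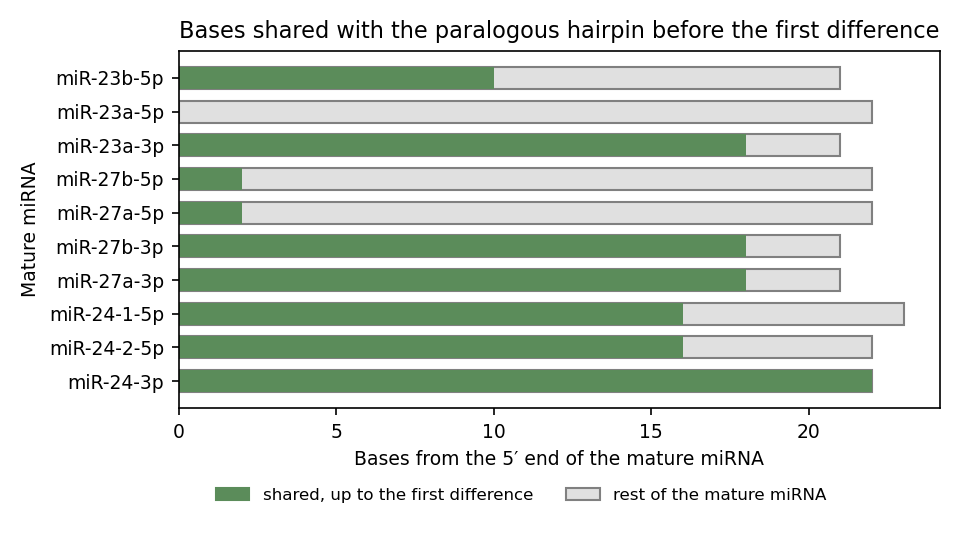
Bases that each mature miRNA shares, from its 5′ end, with the paralogous hairpin before the first difference (green), out of its whole length (grey outline), in the best ungapped match. The 3p products of miR-23 and miR-27 share 18 bases and miR-24-3p all 22, whereas the 5p products of miR-27 share 2.

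Such sharing was also found outside these families, in a smaller share of the genes. Of the 272 genes at 10 CPM or more in both libraries that have a RefSeq mature sequence, 44 (16.2%) have a mature miRNA of which the first 18 bases also occur in another of the 1005 RefSeq hairpins. The 44 include 5 of the 6 members, by mature sequences listed in RefSeq. The sixth is Mir23b, for which only the 5p product is listed. In 37 of the 272 genes (13.6%), a whole mature sequence also occurs in another hairpin. Mir23a, Mir27a and Mir27b share the first 18 bases of a product but no whole mature sequence. Multimapping reads made up 24.7% of reads in replicate 1 and 23.4% in replicate 2, and the files do not say which miRNAs they belong to. Every level below is therefore that of the reads that were assigned to 1 gene.

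The miR-23 hairpins were the most abundant of both clusters, and Mir23b was counted more often than Mir23a. Mir23b had 68663 counts in replicate 1 and 77729 in replicate 2, which is 23251 and 22470.4 CPM. Mir23a had 27182 and 31001 counts, or 9205 and 8962 CPM. Both libraries thus held Mir23b above Mir23a and the ranges did not overlap. Their ratio was 2.53-fold in replicate 1 and 2.51-fold in replicate 2, a mean log2 ratio of 1.33 ± 0.01 (SD, n = 2). Mir23b made up 71.6% of the pair in replicate 1 (Clopper-Pearson 95% interval 71.4 to 71.9%) and 71.5% in replicate 2 (71.2 to 71.8%).

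The miR-27 hairpins, whose products block fat cell differentiation, were split far more unevenly. Mir27b had 6866 counts in replicate 1 and 7958 in replicate 2, or 2325 and 2301 CPM. Mir27a had 579 and 660 counts, or 196 and 191 CPM. Mir27b was 11.9-fold above Mir27a in replicate 1 and 12.1-fold in replicate 2, with a mean log2 ratio of 3.58 ± 0.02 (SD, n = 2). Its share of the pair was 92.2% in replicate 1 (95% interval 91.6 to 92.8%) and 92.3% in replicate 2 (91.8 to 92.9%).

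At the third position the order was the other way round, at much lower counts. Opposite to Mir3074-1, at Mir24-1, the count was 194 in replicate 1 and 249 in replicate 2, which corresponds to 65.7 and 72.0 CPM. Mir24-2 had 406 and 447 sense counts, or 137 and 129 CPM. The log2 ratio of Mir24-1 over Mir24-2 was −1.07 in replicate 1 and −0.84 in replicate 2, with a mean of −0.95 ± 0.16 (SD, n = 2). Mir24-1 made up 32.3% of the pair in replicate 1 (95% interval 28.6 to 36.2%) and 35.8% in replicate 2 (32.2 to 39.5%), so the intervals of both libraries lie below 50%. This direction rests on reading the strands apart: with the unstranded column, which adds the Mir3074-1 reads to Mir24-1, the mean log2 ratio was 0.29. Because miR-24-3p cannot be assigned to either locus by its letters, these counts do not give its level. The multimapping line held 4049.7 times as many reads as Mir24-2 in replicate 1 and 3889 times as many in replicate 2.

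**Figure D2:**
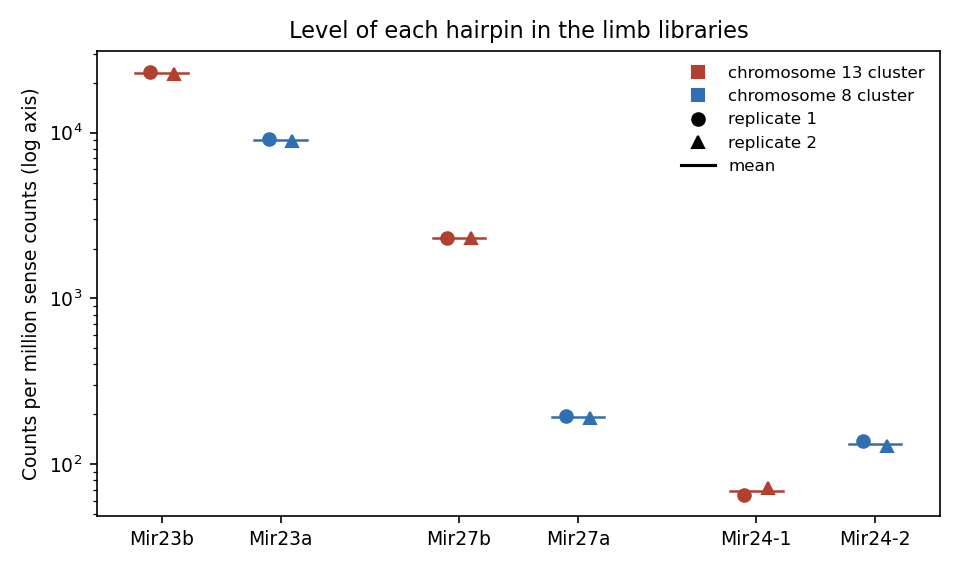
Level of each hairpin in CPM (log axis) in both libraries, circles for replicate 1 and triangles for replicate 2, with a line at the mean; Mir24-1 is read from the opposite-strand count at Mir3074-1. Mir23b and Mir27b stand above Mir23a and Mir27a, and Mir24-1 stands below Mir24-2, an order that turns round with the unstranded column.

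The difference in paralog ratio between positions was larger than the spread between the libraries. The log2 ratio of the miR-27 pair exceeded that of the miR-23 pair by 2.23 in replicate 1 and by 2.27 in replicate 2, a mean of 2.25 ± 0.02 (SD, n = 2). The ratio of the miR-23 pair exceeded that of the miR-24 pair by 2.29 ± 0.16. These pairs are not counted on like parts. The 3p products of miR-23 and miR-27 have a base at position 19 that separates the paralogs, whereas miR-24-3p has none. How much of the differences between positions comes from this was not tested. A test over libraries was not run, since an exact sign-flip test of 2 libraries cannot go below p = 0.5. The hairpins also differ in base composition, with GC contents of 48.6% for Mir23b and 56.0% for Mir23a, 47.9% for Mir27b and 59.8% for Mir27a, and 51.5% for Mir24-1 and 61.7% for Mir24-2. The chromosome 13 hairpin had the lower GC content at all 3 positions, while its count was higher at the miR-23 and miR-27 positions only; the part of base composition in the ratios was not tested.

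**Figure D3:**
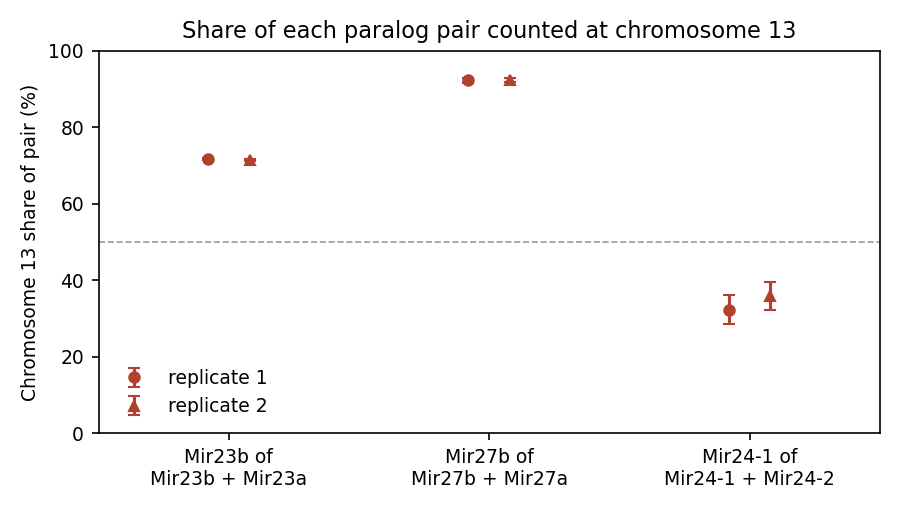
Share of each paralog pair that was counted at the chromosome 13 hairpin, in percent, in replicate 1 (circles) and replicate 2 (triangles), with Clopper-Pearson 95% intervals that cover counting error; the dashed line marks 50%. The miR-27 pair lies at 92.2 and 92.3%, the miR-23 pair at 71.6 and 71.5%, and the miR-24 pair at 32.3 and 35.8%; with the unstranded column the miR-24 pair turns round.

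The minus strand of the third position was also counted. Mir3074-1, whose hairpin runs opposite to Mir24-1, had 271 sense counts in replicate 1 and 345 in replicate 2, or 91.8 and 99.7 CPM. It took 58.3% of the assigned counts at its locus in replicate 1 (95% interval 53.6 to 62.8%) and 58.1% in replicate 2 (54.0 to 62.1%). That was more than the assigned counts of Mir24-1 on the other strand. Neither miR-24-3p nor mmu-miR-3074-5p can be assigned to a locus by its letters, so this share does not give the levels of these products. Opposite to Mir24-2, where Mir3074-2 is annotated but not listed, the count was 1 in replicate 1 and 4 in replicate 2; this comparison was chosen after the values were seen. The ratio of Mir3074-1 to that position was 271 in replicate 1 (95% interval 48.2 to 10743) and 86.3 in replicate 2 (33.4 to 318). The product mmu-miR-3074-5p lies within a run of 30 bases that Mir3074-1 and Mir3074-2 share. Opposite to Mir23b, Mir27b, Mir23a and Mir27a no count was found in either library, which allows up to 3 counts each.

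Summed over the 3 positions, the counts of the chromosome 13 cluster came to 75723 in replicate 1 and 85936 in replicate 2, and those of the chromosome 8 cluster to 28167 and 32108. Divided by all sense counts, that is 2.52% ± 0.06 for chromosome 13 and 0.941% ± 0.018 for chromosome 8 (SD, n = 2 each). The chromosome 13 sum includes the Mir24-1 counts, which are opposite-strand counts and not in that divisor. With sense plus opposite-strand counts as the divisor, the chromosome 13 share was 2.47%. The chromosome 13 sum was 2.68-fold higher, with log2 ratios of 1.43 in replicate 1 and 1.42 in replicate 2. The makeup of the assigned counts differed between the clusters as well. Reads of miR-24-3p that match both loci are in neither sum, so the miR-24 shares below do not give the part of that product. Mir23b took 90.6% ± 0.2, Mir27b 9.16% ± 0.14 and Mir24-1 0.273% ± 0.024 of the chromosome 13 counts. Mir23a took 96.5% ± 0.03, Mir27a 2.06% and Mir24-2 1.42% ± 0.03 of the chromosome 8 counts. The share of Mir27a was the same in both libraries to 3 digits.

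Within each cluster the count of the miR-23 hairpin stood above that of the miR-27 hairpin, and that above the count of the miR-24 hairpin. On chromosome 13, the log2 ratio of Mir23b over Mir27b was 3.32 in replicate 1 and 3.29 in replicate 2, which is 9.88-fold by the mean. Mir27b over Mir24-1 was 5.15 and 5.00. On chromosome 8, Mir23a over Mir27a was 5.55 in both libraries, or 47.0-fold, and its counting error of 0.06 in each library was larger than the spread between them. Mir27a over Mir24-2 was only 0.51 in replicate 1 and 0.56 in replicate 2, with a counting error of 0.09 in each. The step from miR-23 to miR-27 was thus larger on chromosome 8, and the step from miR-27 to miR-24 larger on chromosome 13. The miR-24 counts leave out reads that match both loci, such as those of miR-24-3p. The steps to miR-24 are therefore steps in assigned counts and not in the level of that product.

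Ranges of the size seen between the listed hairpins were common among hairpin clusters of the mouse genome in these libraries. Listed hairpins on the same strand with gaps of at most 10 kb were joined into clusters, and 49 clusters had 2 or more members with at least 1 of them at 10 CPM in both libraries. The range between the highest and lowest member was 6.09 log2 units on chromosome 8, with 18 clusters wider, and 3.30 on chromosome 13, with 34 wider. The chromosome 13 value covers Mir23b and Mir27b only. Against Mir24-1 the log2 ratio of Mir23b was 8.38 ± 0.13 (SD, n = 2). Of the 47 other clusters, 11 exceeded that range, and most of those 11 have a member at 0. The median range of all 49 clusters was 5.39, and that of the 40 clusters with no member at 0 was 4.46. Of those 40 clusters, 9 were wider than the chromosome 8 cluster and 25 wider than the chromosome 13 cluster. The ranges of 6.09 and 8.38 end at a miR-24 hairpin, where reads that match both loci are not counted. The clusters also differ in size, with up to 107 members. The part of either in these ranges was not tested.

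**Figure D4:**
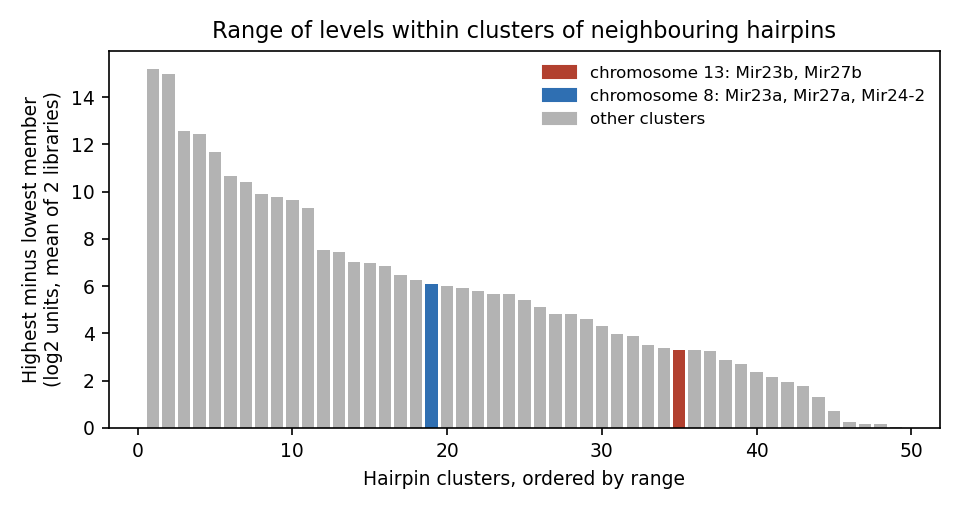
Range of levels in each of 49 clusters of neighbouring hairpins, as log2 of the highest over the lowest member with 0.5 counts added, averaged over both libraries and ordered by size. The chromosome 13 bar (3.30, red), which holds Mir23b and Mir27b only, lies below the median of 5.39 and the chromosome 8 bar (6.09, blue) above it; with Mir24-1 the chromosome 13 range would be 8.37, above both.

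By mean level, Mir23b ranked 12, Mir27b 64 and Mir3074-1 202 of all listed genes, and Mir23a ranked 24, Mir27a 159 and Mir24-2 179. Mir23b and Mir23a held the same rank in both libraries. Mir23b stood between Mir126a, the miRNA of the endothelial gene Egfl7, at 24194 ± 84 CPM, and Mir30e at 20379 ± 280 CPM (SD, n = 2), and its own values overlapped neither. Mir27b stood between Mir361 and Mir125b-1, again without overlap. Mir23a lay below Mir130b without overlap, while its range overlapped that of Mir298 below it. Mir27a was not separated from Mir141 or Mir505, Mir24-2 not from Mir19a or Mir7-1, and Mir3074-1 not from Mir101a or Mir877. With 2 libraries, likeness of pattern between genes could not be ranked.

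Seeds were then compared over all RefSeq mature miRNAs of the mouse. Among RefSeq mature miRNAs, the miR-23 seed was found in miR-23a-3p only, Mir23b having no 3p product listed there, and the miR-27 seed in miR-27b-3p and miR-27a-3p only. The miR-24 seed was also found in miR-5124b, miR-6369, miR-6410 and miR-6413, and their hairpin genes had 0 sense counts in both libraries. Among hairpins with these seeds in RefSeq, sense counts were found at Mir27b, Mir23a, Mir27a and Mir24-2.

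Other families with paralogous clusters were set beside these pairs. In the Mir15-16 family, Mir15b had 2018 and 2080.3 CPM against 4885 and 4487 CPM for Mir15a, a log2 ratio of −1.19 ± 0.12, and Mir16-2 over Mir16-1 was −1.84 ± 0.12 (SD, n = 2 each), so both positions pointed the same way. In the Mir181 family the positions pointed opposite ways: Mir181a-1 over Mir181a-2 was 2.61 ± 0.09 and Mir181b-1 over Mir181b-2 was −5.91 ± 0.20. Among the pairs studied here, only miR-24 pointed the other way, a direction that rests on reading the strands apart. Mir29c over Mir29a was 1.38 ± 0.29, and Mir29b-2 and Mir29b-1 had at most 2 counts in a library, which gives no ratio. The products of these pairs are shared to different degrees. miR-16-5p, miR-29b-3p, miR-181a-5p and miR-181b-5p have the same letters at both of their loci, whereas miR-29c-3p differs from the Mir29a hairpin after 9 bases; the Mir15 pair was not compared. The difference between these ratios and those of the miR-23, miR-27 and miR-24 pairs was not tested.

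The members varied little between the libraries. Each listed gene with 10 or more counts over both libraries was tested with an exact binomial test of replicate 2 against replicate 1, scaled by TMM (edgeR's trimmed mean of M values) and with Benjamini-Hochberg adjustment at 0.05. The test compares these libraries and no conditions. It called 2 of the 6 members, both lower in replicate 2, where 21.3% of the 422 tested genes were called in either direction and 11.8% lower. Mir23b had a log2 ratio of −0.06 (exact binomial adjusted p = 4.17e-15) and Mir23a of −0.05 (exact binomial adjusted p = 0.000157). In fold terms Mir23b was 1.04-fold lower and Mir23a 1.04-fold lower, beside a median difference of 1.06-fold for the 201 tested genes at 100 CPM or more. With the binomial variance widened by the median squared deviation of all genes, Mir23b passed and Mir23a did not (adjusted p = 0.0704), where 11.4% of the tested genes were called. Widened by the mean, neither passed (adjusted p = 1 for each), where 2.84% were called.

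Mir27b had a log2 ratio of −0.03, Mir27a of −0.05, Mir24-2 of −0.10 and Mir3074-1 of 0.11, none past the threshold. The value was lower in replicate 2 for 5 of the 6 members and higher for 1. Their median log2 ratio was −0.05, beside a median of 0.00 over all genes tested. Both miR-23 hairpins moved together, so their ratio changed less than either level.

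**Figure D5:**
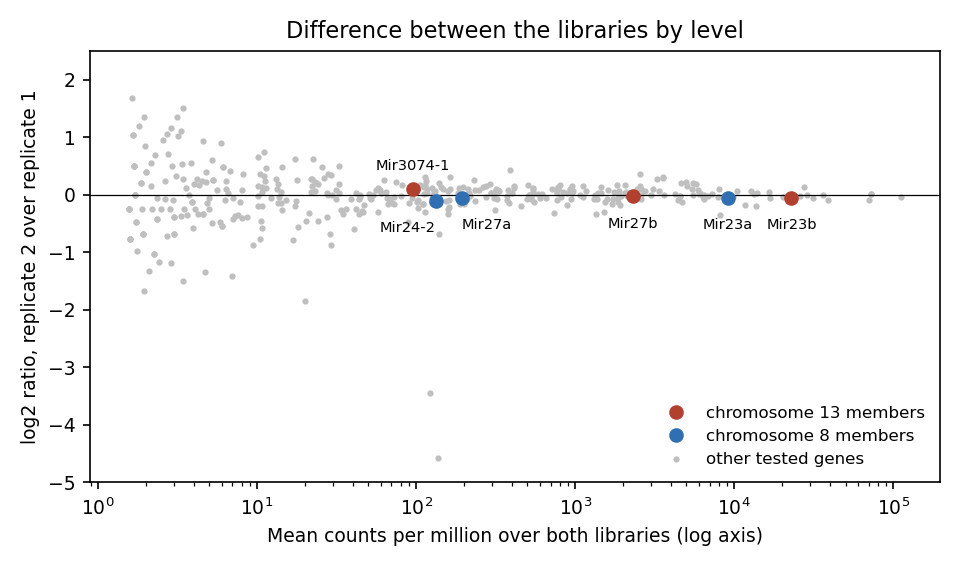
Log2 ratio of replicate 2 over replicate 1, scaled by TMM, against mean level in CPM (log axis) for all 422 tested genes, with the members in red (chromosome 13) and blue (chromosome 8). All 6 members lie between −0.10 and 0.11.

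The limb label was set against marker miRNAs of several tissues. All 6 miRNAs of the Hox clusters, which pattern the limb, were detected and summed to 13.02% of sense counts in replicate 1 and 12.75% in replicate 2, and all 6 of cartilage and mesenchyme to 5.81 and 5.40%. Both sums leave out reads that match several hairpins. Mir196a-1 and Mir196a-2 share a mature product, as do Mir199a-1, Mir199a-2 and Mir199b. The endothelial Mir126a held 2.43 and 2.41%, and the 7 epithelial miRNAs 1.32 and 1.53%. Muscle, white blood cell, erythroid, neural and liver lists each held at most 0.0725%. Mir1a-2 of the muscle list and Mir142 of the white blood cell list are not among the listed genes. Mir1a-1 and Mir142b had no sense count, so these shares give no limit on those cells. Mir122 of hepatocytes had 21.7 and 14.7 CPM. The neural list gives no limit on nerve cells, since Mir9-1, Mir9-2 and Mir9-3 share a mature product and multimapping reads are in no count. Which of these cells the miR-23, miR-27 and miR-24 counts came from was not tested.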

How the data were processed

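Per the text files deposited with each sample, the assembly was mm10 and the annotation GENCODE M4. What mapped and counted the reads is not given in the sources used here. The authors deposited raw counts per miRNA gene, without normalization, 1 file per library, with 3 count columns after 4 lines for reads assigned to no gene. The first column equals the sum of the others in all 1973 genes. The second was read as the sense strand because it holds nearly all counts. Counts of a hairpin do not separate its arms, and multimapping reads are in no gene.

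Symbols came from GENCODE M21, by identifier without version (1894 of 1973 matched), and sequences from RefSeq, where all 6 members, Mir24-1 and Mir3074-2 matched. CPM used all sense counts. Pair ratios were computed within each library with no pseudocount, and are mean ± SD over libraries, which measures only the spread between these samples. Replicate ratios used a prior count of 0.5. The binomial test was checked on simulated counts that held counting error only, so the check does not cover the wider spread between these libraries. edgeR's quasi-likelihood test needs a contrast, which a single group lacks. Members, lists and tests were chosen with earlier results of these data known. Named genes were the members, their neighbours in rank, genes with the same seeds, the 3 comparison families and genes of the marker lists. Tools were edgeR 4.0.16 and DESeq2 1.42.0 in R 4.3.3, and Python 3.11.15 with scipy 1.17.1.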

Additional observations from a re-analysis of the deposited data

How the results depend on the processing

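Alternatives covered the count column, pseudocount, denominator, miR-24 position, cluster gap, detection level, scaling, filter, form of the library test, and each library alone. The pair ratios of miR-23 and miR-27 kept their direction under each alternative run for them. These alternatives could hardly turn it. No opposite-strand count was found at these hairpins, and the pseudocounts are small beside their counts. None of the alternatives adds back multimapping reads. The log2 ratio of Mir24-1 over Mir24-2 became 0.29 with the unstranded column, which adds the Mir3074-1 reads to Mir24-1. Of all reads, the chromosome 13 cluster held 1.15% and the chromosome 8 cluster 0.428%; of sense plus opposite-strand counts, chromosome 8 held 0.920%. Without the miR-24 position the log2 ratio between the clusters was 1.44. Mir23a over Mir27a was 5.552 with a pseudocount of 0.5 and 5.551 with 1, shifts that exceed only its very small spread. With members at 10 CPM in both libraries only, 9 clusters were wider than the chromosome 8 cluster. The library test called 48 genes with overdispersion from the median and 12 with that from the mean, in place of 90. No paired analysis was possible because the series holds a single group. Counts at the miR-24 position of 194 to 447 limit that ratio, and 2 libraries limit all spreads.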
